A study of Homo sapiens with 24 samples.

Results

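The RBM family is a set of genes named for the RNA-binding motif in their proteins, and 35 of them had at least 1 enriched window in 6 eCLIP window lists that together name 9792 genes. Members were all listed genes whose symbol begins with RBM and a digit or with RBMX, apart from RBM15B. RBM14-RBM4 is a readthrough transcript across 2 neighbouring members, and all of its windows also belong to RBM14 or RBM4. All windows of RBM12 are listed for CPNE1 as well, those of RBM34 for ARID4B, those of RBM27 for RP11-449H3.3 and those of RBMXL1 for KYAT3. RBMX and RBMXL1, RBM4 and RBM4B, and RBM12 and RBM12B are pairs of related genes. Reads may be uncertain in their assignment within a pair, which was not checked here.

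RBM proteins carry RNA recognition motifs, folds that hold short stretches of single-stranded RNA. Many sit in the spliceosome, where they help to choose splice sites or join the complex at a given step, and others act in RNA decay, m6A methylation, ribosome assembly or translation. Several control the splicing of RNAs of their own family. What was measured here is protein bound along the RNAs of these genes and not the RBM proteins themselves.

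The libraries were made from HEK293, a line derived from human embryonic kidney. In eCLIP a protein is crosslinked to RNA and immunoprecipitated (IP), and its reads along transcripts are set against a matched input library. SNRNP200, or Brr2, is the spliceosomal helicase carried by the U5 snRNP that parts U4 from U6 RNA, and CAPRIN and G3BP1 are RNA-binding proteins of stress granules, the mRNA and protein assemblies of stressed cells. The 24 libraries form 6 experiments with 2 IP and 2 input libraries each: SNRNP200 from the cytoplasm with arsenic at 500 µM, SNRNP200 from the cytoplasm without it, SNRNP200 from whole cells with arsenic, SNRNP200 from whole cells without it, CAPRIN and G3BP1, the last pair untreated by their characteristics. The labels used here give no length of treatment, and nothing says whether replicates were separate cultures, so p-values measure only the spread between these libraries. A window is a stretch of at most 100 bases listed as enriched in IP over input at a q value of at most 0.2. Enrichment is relative to the baseline of each list, so raw IP reads need not exceed input reads. In the cytoplasm with arsenic, for example, the RBM3 window at chrX:48575104-48575180 had 16 IP and 25 input reads. Markers of HEK293 were not checked because the lists hold only enriched windows. As a check of the fraction, the nuclear RNA MALAT1 had windows in both whole cell lists and in CAPRIN, and in neither cytoplasmic list. Of 5 nuclear RNAs sought, it was the only 1 in any list. The cytoplasmic lists held 25.2% of all genes with arsenic and 18.6% without it. Absence of 1 gene from such short lists therefore cannot settle how pure the fraction was.

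The bases at which 4 members begin are shown because cytoplasmic SNRNP200 windows of cells with arsenic lay over them, which is described further on. They come from RefSeq on GRCh38.p14, with 5 bases before the start in lower case and the first 25 transcribed bases in capitals. RBM3 is a cold-inducible regulator of translation, RBMX is the X-linked hnRNP G, RBM12 is a protein of little known function and RBM23 is a splicing coactivator related to RBM39. They stand at chrX:48574479-48574508 on the plus strand, chrX:136880701-136880730 on the minus strand, chr20:35664876-35664905 on the minus strand and chr14:22919125-22919154 on the minus strand, in that order.
RBM3: tctttATCAATCGTCTTCCGGCGCAGCCCC
RBMX: tcgccCTCGTTGCGCAGTAGTGCTAGCGGC
RBM12: cggccATTTTGTGAAGCGGCGAAGGAGGTG
RBM23: acggcAGAGCTGCCGCCATTTTGCGGGAAG
The transcribed bases are 64.0% G and C in RBM3 and in RBMX, 60.0% in RBM23 and 52.0% in RBM12.

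Every member was listed for whole cell SNRNP200, while far fewer were listed in the cytoplasm or for G3BP1. Of the 35 members, 12 were listed for cytoplasmic SNRNP200 with arsenic, against 25.2% of all 9792 genes, and 10 without arsenic, against 18.6%. With q under 0.05 these counts were 2 and 3, and with at least 3 windows a gene they were 2 and 4. In whole cells all 35 were listed with arsenic, against 83.8% of all genes, and all 35 without it, against 92.4%. There q under 0.05 left 25 with arsenic and 33 without it, and at least 3 windows a gene left 28 and 32. CAPRIN had 23 members, against 44.6% of all genes, and G3BP1 had 6, against 12.6%. With at least 3 windows a gene CAPRIN had 10 and G3BP1 had 1, and with q under 0.05 G3BP1 had 3. Such counts are of windows listed as enriched over input and do not measure the amount of an RNA. In these bulk lysates, fewer cells with an RNA and less of it per cell cannot be told apart.

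RBM12, RBM14, RBM14-RBM4 and RBM39 were in all 6 lists, as were 424 of the 9792 genes. Outside whole cells RBM14-RBM4 had only the windows of RBM14, so the counts there hold the same windows under both names. With windows of 1 gene only, 9 members were left in the cytoplasm with arsenic, 7 without it, 18 for CAPRIN and 2 for G3BP1. RBM14 is a coactivator of transcription and a paraspeckle protein, and RBM39 is a splicing coactivator. Another 10 members had windows in whole cells only, namely RBM4B, RBM7, RBM11, RBM18, RBM20, RBM33, RBM41, RBM45, RBM48 and RBMXL1, as did 4296 of all genes.

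**Figure D1:**
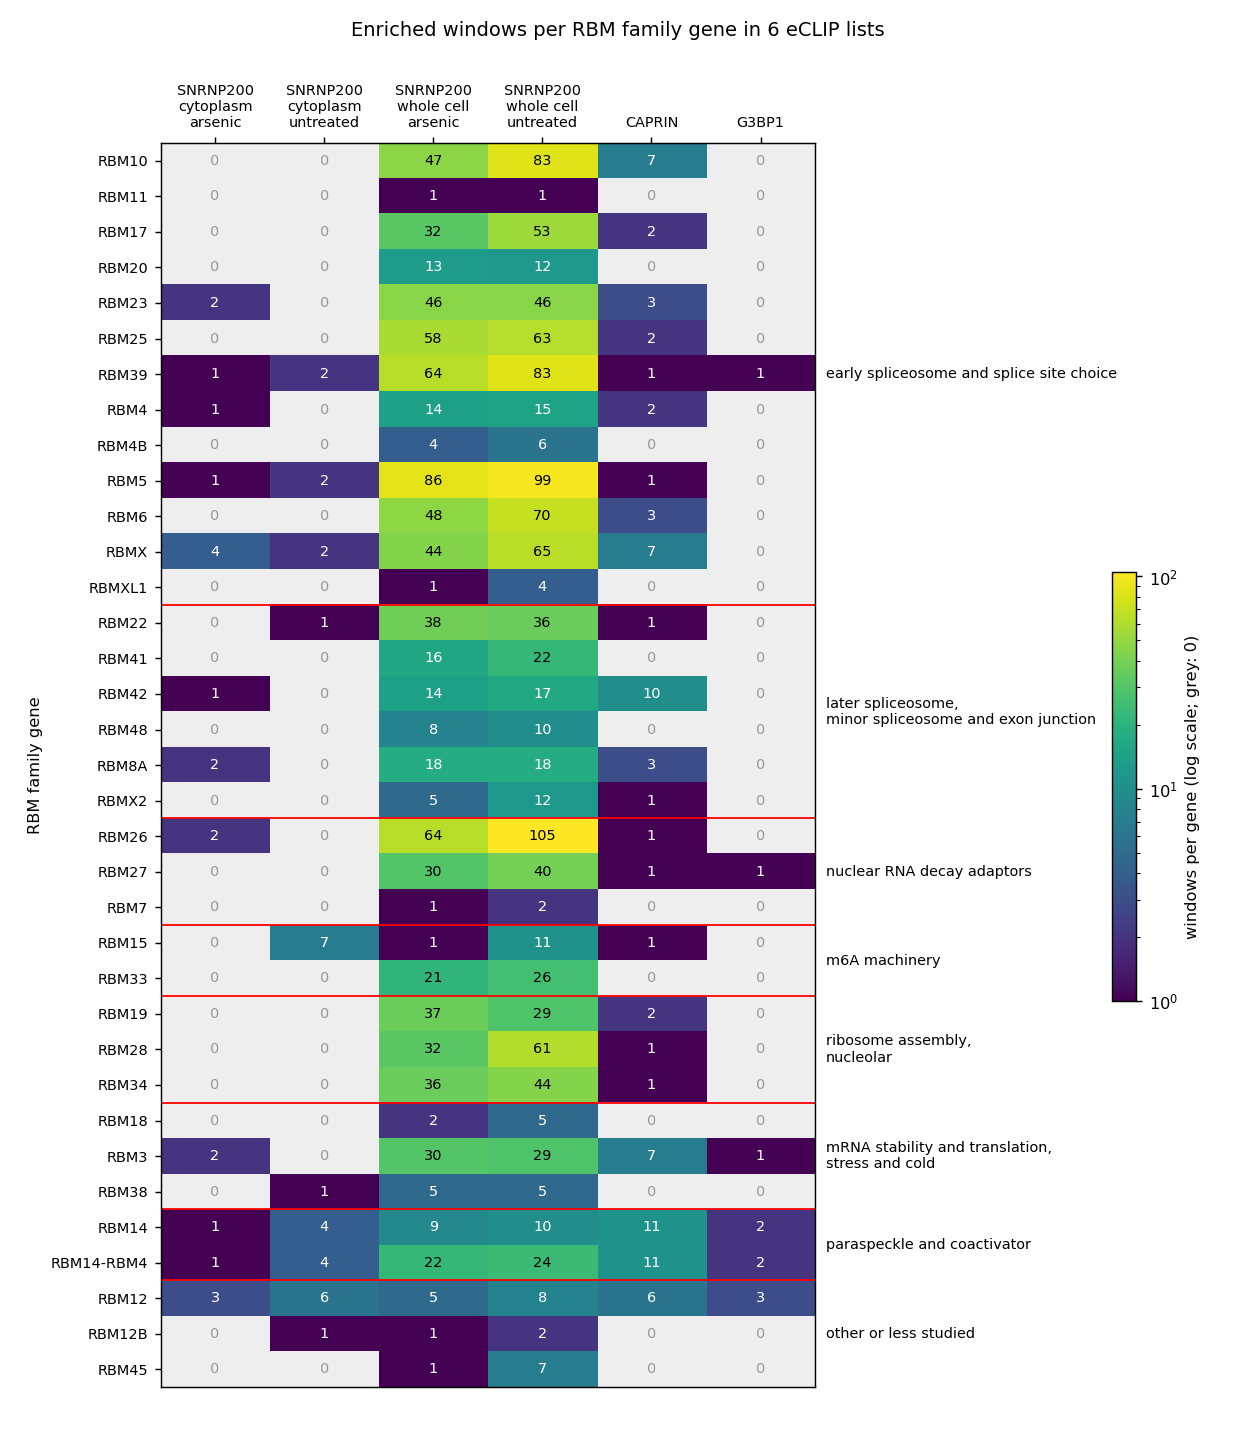
Number of enriched windows for each of the 35 members (rows, grouped by role with red lines between groups) in the 6 lists (columns), with colour on a log scale and grey for 0. The whole cell columns are filled in every row, up to 105 windows in RBM26, while no member has more than 7 windows in a cytoplasmic list or more than 3 in G3BP1.

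In whole cells the windows lay mostly in introns and coding exons, as they did over all genes. Introns held 50.6% of the 832 member windows with arsenic and 49.4% of the 1099 without it, against 51.9% and 49.0% of the windows of all genes. Windows in introns next to a splice site made up 37.9% with arsenic and 32.4% without it, against 41.0% and 35.7% over all genes. Coding exons held 36.1% and 36.9% of member windows, against 38.2% and 41.5% of all. The 3' UTR took 4.09% of member windows with arsenic and 4.37% without it, against 1.48% and 1.59% of all windows, and RBMX alone gave 10 of the 34 with arsenic and 17 of the 48 without it. Weighted by IP reads, introns held 42.0% with arsenic and 41.3% without it.

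**Figure D2:**
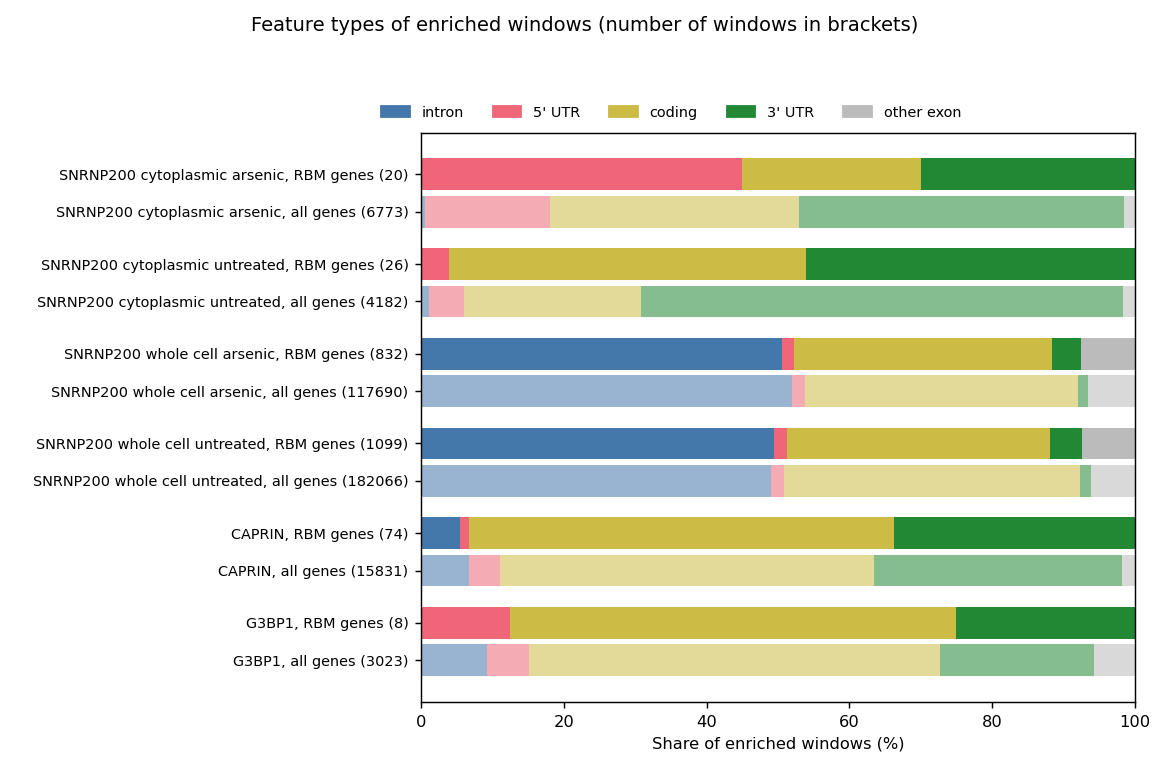
Share of enriched windows (horizontal axis, %) by feature type in each list, for windows of members (full colour) and of all genes (pale), with the number of windows in brackets. Intron windows fill about the same part of both bars in whole cells and next to none of either bar in the cytoplasm, and 5' UTR windows take 45.0% of member windows in the cytoplasm with arsenic, against 17.5% of all windows there.

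Members of the early spliceosome and of splice site choice were the largest group by role. These 13 genes had 458 windows with arsenic and 600 without it, counted per gene. RBM5, which regulates exon choice in the early spliceosome, had 86 windows with arsenic and 99 without it, holding 9020 and 7817 IP reads. Its strongest window with arsenic lay beside a 5' splice site at chr3:50113545-50113644, with log2 enrichments of 6.26 and 6.31 in the replicates with arsenic and of 5.20 and 6.38 in those without it. The replicates of both groups overlapped there. RBM10, a relative of RBM5 on the X chromosome, had 47 windows with arsenic and 83 without it. RBM6, the neighbour of RBM5 on chromosome 3, had 48 and 70 windows.

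RBM39 had 64 windows with arsenic and 83 without it, and many of them lay outside coding exons and their splice sites. The lists class 14 of its windows with arsenic and 19 without it as exons of mRNA isoforms that are neither coding nor UTR, against 6 coding windows in each. An example without arsenic is chr20:35709140-35709223, in which the replicates had log2 enrichments of 4.21 and 6.32 with 51 IP and 4 input reads. Its highest window without arsenic was at a 3' splice site, chr20:35714390-35714489, with a mean of 6.16. RBM25, which promotes use of nearby 5' splice sites, had 58 windows with arsenic and 63 without it. RBM17, a protein of the early spliceosome that binds U2 snRNP proteins, had 32 and 53, and RBM23 had 46 in each. RBMX had 44 windows with arsenic and 65 without it, and all 44 were among the 65.

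Other members of this group had few windows. RBM4, a regulator of alternative splicing, had 14 windows with arsenic and 15 without it, and its paralog RBM4B had 4 and 6. The heart and muscle splicing factor RBM20 had 13 and 12, RBMXL1 had 1 and 4, and RBM11, known from brain and testis, had 1 in each.

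Among members of the later spliceosome, the minor spliceosome and the exon junction complex, RBM22 had the most windows. RBM22 contacts the U6 snRNA and the pre-mRNA in the catalytic spliceosome, and it had 38 windows with arsenic and 36 without it. RBM8A, the Y14 subunit of the exon junction complex, had 18 windows in both groups, and all 18 were shared. The highest enrichment of any member window in whole cells was in RBM8A without arsenic, beside a 5' splice site at chr1:145926382-145926481 on the minus strand. Its replicates had log2 values of 7.25 and 7.40, with 99 IP reads and 0 input reads. RBM41, RBM42 and RBM48, tied to the minor spliceosome or the tri-snRNP, had 16, 14 and 8 windows with arsenic and 22, 17 and 10 without it. RBMX2, a spliceosome protein, had 5 and 12.

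RBM26 had the longest row of windows in the family without arsenic. RBM26 and RBM27 belong to the nuclear decay branch that targets polyadenylated RNA, and RBM7 is a subunit of the nuclear exosome targeting complex. RBM26 had 64 windows with arsenic and 105 without it, RBM27 had 30 and 40, and RBM7 had 1 and 2, none of them shared. The ribosome assembly factors RBM19, RBM28 and RBM34 had 37, 32 and 36 windows with arsenic and 29, 61 and 44 without it. The top RBM19 window without arsenic, chr12:113959405-113959504 beside a 3' splice site, had values of 4.84 and 6.02 with arsenic and of 5.18 and 7.52 without it, and the replicates overlapped.

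RBM3 stood out for the density of its windows, with 4.49 windows per kb of gene with arsenic and 4.34 without it. No member was denser with arsenic, and only RBMX was denser without it, with 3.82 per kb with arsenic and 5.64 without it. RBM3 had 30 windows with arsenic and 29 without it, of which 28 were shared. Its top window with arsenic lay in a short intron with both splice sites at chrX:48576420-48576507, with replicate values of 6.18 and 7.51, 169 IP reads and 2 input reads. Without arsenic its top window covered the stop codon at chrX:48577094-48577162, with values of 6.14 and 7.50. RBM38, which controls the stability and translation of p53-pathway mRNAs, had 5 windows in each group, and RBM18 had 2 with arsenic and 5 without it. RBM14 had 9 and 10 windows and RBM14-RBM4 had 22 and 24.

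The question put by the whole cell pair was whether arsenic moved SNRNP200 along these RNAs. The whole list was shorter with arsenic. At a q value of at most 0.2 the members lost a smaller part of their windows than the list did. With arsenic there were 832 member windows, against 1099 without it, a ratio of 0.757, while the ratio over all windows was 0.646. The 26 members with at least 10 windows without arsenic had a median ratio of 0.813, against a median of 0.621 over 5136 such genes, whose quartiles were 0.429 and 0.808. These ratios come from 1 list each and carry no replicate error, and library depths were not used here, so no test was made. With q under 0.05, 349 member windows were left with arsenic and 635 without it, a larger loss than at 0.2. The list as a whole was not counted at this threshold. Member windows also had more IP reads, with medians of 42 with arsenic and 39 without it, against 29 and 28 over all windows. Whether coverage bears on the ratios was not tested. Of member windows, 713 were in both lists, 85.7% of those with arsenic and 64.9% of those without it, against 77.4% and 50.1% of all windows.

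RBM19, RBM20, RBM22 and RBM3 had more windows with arsenic than without it, a pattern seen in 7.55% of the 5136 genes. RBM15 was at the other end, with 1 window with arsenic and 11 without it, a ratio of 0.0909 that was at percentile 1.1 of those genes. RBM15 is a subunit of the m6A writer complex that brings it to its RNAs. Its window with arsenic spanned the stop codon at chr1:110342180-110342279, with values of 1.50 and 3.96 with arsenic and of 2.20 and 2.36 without it, so the replicates overlapped. RBM33, which helps the m6A eraser ALKBH5 to its targets, had 21 windows with arsenic and 26 without it, and all 21 were shared. RBM45 had 1 and 7 windows, RBM12 had 5 and 8, and RBM12B had 1 and 2.

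**Figure D3:**
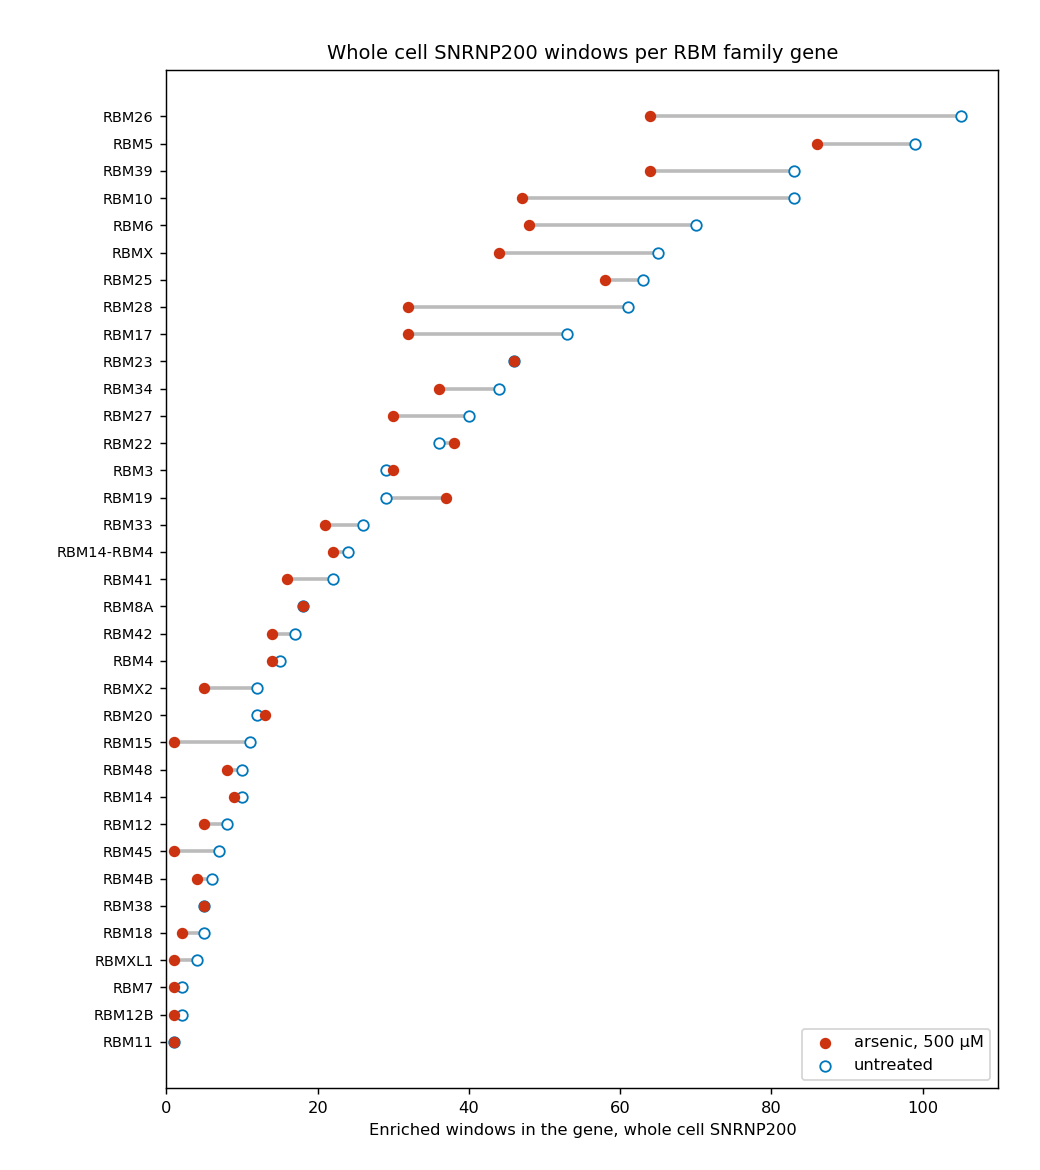
Number of enriched whole cell SNRNP200 windows (horizontal axis) in each member (vertical axis), with filled red points for arsenic and open blue points for untreated cells. The red point lies left of the blue one in most rows, by most in RBM26 (64 against 105) and RBM10 (47 against 83), and right of it in RBM19 (37 against 29).

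Enrichment within shared windows did not pass the test in any member. In limma over 7408 windows, 1 per gene, 0.0% were called, 284 of them had an unadjusted p under 0.05, and among the 33 member windows no unadjusted p was under 0.05. The smallest adjusted p among members was 0.99. The median member difference, arsenic minus untreated, was 0.18 on the log2 scale, against 0.10 over all windows, with 18 member windows above 0 and 15 below. The replicates of both groups stood apart in 14 of the 33, against 32.1% of all windows, so this share is near the background.

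In the window tested, RBM41 had the largest difference. This coding window at chrX:107069255-107069328 had log2 values of 4.51 and 5.60 with arsenic, against 3.15 and 3.94 without it, and the replicates did not overlap. The difference was 1.51 with a standard error of 0.87 (limma, adjusted p = 0.99). RBM48 differed in the opposite direction, in a coding window at chr7:92534887-92534984 with 2.25 and 3.11 with arsenic and 3.67 and 4.11 without it, a difference of -1.21 ± 0.86 (SE). RBM11, RBM22 and RBMX2 had differences of 1.31, 1.14 and 1.14, and RBM12B and RBM34 of 1.07 and 0.96. RBM28 and RBM19 had differences of -0.97 and -0.92, and RBM20 of 0.89. With the mean over all shared windows of a gene the difference was 0.18 in RBM41, -0.27 in RBM48 and 0.076 in RBM22. None of these passed limma, all with an adjusted p of 0.99, and in RBM19, RBMX2, RBM20 and RBM34 the sign turned under another choice of windows.

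The cytoplasmic lists held a different part of the same RNAs. Not 1 of the 20 member windows with arsenic, nor of the 26 without it, lay in an intron, but introns held only 0.546% of all 6773 windows of the list with arsenic and 1.08% of all 4182 without it, so this count is near the background. With arsenic 9 of the 20 were in a 5' UTR, or 45.0% against 17.5% of all windows. Another 6 were in a 3' UTR, or 30.0% against 45.5%, and 5 in coding exons, which held 34.9% of all windows. Of the 9 in a 5' UTR, 1 had a q value under 0.05, the RBMX window at 0.033, and the others had q values of 0.086 to 0.19, so that at this threshold 2 member windows were left in the list, in RBMX and in the 3' UTR of RBM8A. Without arsenic 1 of the 26 was in a 5' UTR, or 3.85% against 4.95% of all windows. In this list 12 were in a 3' UTR, or 46.2% against 67.6%, and 13 in coding exons, or 50.0% against 24.7%, and 7 of those 13 were in RBM15. These counts compare 2 lists and not replicates, so no test was made.

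The 9 windows in a 5' UTR came from 7 members, RBM3, RBM12, RBM23, RBM26, RBM39, RBM42 and RBMX. RBM3, RBMX, RBM12 and RBM23 had 1 that held the RefSeq start, the bases shown above, so 4 of the 9 did, against 32.2% of the 1177 windows of this type in the list whose gene is in the RefSeq table. The RBM3 window at chrX:48574484-48574573 begins at the first base in capitals, and its replicates had log2 values of 3.43 and 5.30 with 47 IP and 27 input reads. The RBMX window, chrX:136880681-136880764, had 3.64 and 3.94 with 76 IP and 19 input reads. The RBM23 window, chr14:22919091-22919182, had 3.49 and 3.56, and the RBM12 window, chr20:35664858-35664956, had 2.00 and 3.23. The RBMX, RBM23 and RBM12 windows also reached upstream of the RefSeq start, so the lists place 5' UTR bases before it.

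The other windows of this type lay further in. The RBM39 window at chr20:35742034-35742126, 135 to 227 bases from the RefSeq start, had values of 3.24 and 5.66 with 119 IP and 41 input reads, the most IP reads of any member window in this list. The same bases were listed in whole cells with arsenic, in whole cells without it and for G3BP1, but neither in the untreated cytoplasm nor for CAPRIN. RBM26 had windows 35 to 124 and 214 to 303 bases in, with means of 3.54 and 3.55, and RBM42 had 1 at 57 to 118 bases with a mean of 3.34. The only 5' UTR window without arsenic was in RBM12, 5887 bases from the RefSeq start, with values of 2.23 and 4.08.

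RBM3, RBM4, RBM8A, RBM23, RBM26 and RBM42 were listed in the cytoplasm with arsenic only, and RBM12B, RBM15, RBM22 and RBM38 without arsenic only. This membership rests on the threshold at a q value of 0.2. It is 6 and 4 of the 16 members in either list, against 42.9% and 22.3% of the 3182 genes in either. RBM5, RBM12, RBM14, RBM14-RBM4, RBM39 and RBMX were in both. Of the genes found with arsenic, RBM8A had 2 windows in its 3' UTR, with means of 4.33 and 4.40 and 29 and 28 IP reads. RBM23 had the member window with the highest mean of the list, in its 3' UTR at chr14:22901344-22901439, though its replicates were 3.38 and 6.62. RBM4 had a 3' UTR window with 3.54 and 4.97.

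Of the genes found without arsenic only, RBM15 had the most windows. All 7 lay in its coding sequence, with replicate means of 2.61 to 4.17 and 285 IP reads in all, while no RBM15 window was listed with arsenic. The window with the most reads, chr1:110341104-110341201, had values of 2.91 and 4.48 with 79 IP and 6 input reads. RBM22 and RBM38 had 1 window each in the 3' UTR, with means of 3.17 and 2.75, and RBM12B had 1 in its coding sequence with a mean of 3.54. The baseline differed between these lists, since 9.06 input reads per IP read gave a log2 value of 0 with arsenic and 1.01 without it, and member windows had a median of 15 input reads with arsenic and of 3 without it. The part of this in which genes were listed was not tested.

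Members in both cytoplasmic lists rarely had the same window in both. RBM14 had 1 window with arsenic, chr11:66627163-66627261 in its 3' UTR with a mean of 3.78, and 4 just before it without arsenic, of which the strongest had a mean of 3.51 and 108 IP reads. RBM12 had 3 windows with arsenic and 6 without it, RBMX had 4 and 2, and RBM39 had 1 in the 5' UTR with arsenic and 2 in the 3' UTR without it. Only 1 window was shared, 5.0% of the 20 with arsenic and 3.85% of the 26 without it, against 15.7% and 25.5% over all genes. It lay in the 3' UTR of RBM5 at chr3:50118739-50118832, with values of 3.07 and 4.82 with arsenic, against 3.30 and 3.43 without it. The difference of 0.58 ± 1.18 (SE) did not pass limma (adjusted p = 0.69). Over the 669 windows tested 0.0% were called, 196 had an unadjusted p under 0.05, and the median difference was 2.02. Relative to that median RBM5 had a difference of -1.44. Replicates stood apart in 71.9% of all windows and overlapped in this one.

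Set beside whole cells, most cytoplasmic member windows were not shared, but the shared part was not below that of all windows. With arsenic 5 of the 20 cytoplasmic windows were also among the 832 of whole cells, and over all genes 882 of 6773 were. Without arsenic 5 of the 26, or 19.2%, were among the 1099, and over all genes 651 of 4182, or 15.6%, were. In limma 0.0% of the 527 genes tested with arsenic and 0.0% of the 390 without it were called, and 94 and 65 had an unadjusted p under 0.05, none of them a member. The median difference over these genes was 1.31 with arsenic and 0.12 without it.

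With arsenic, the window in the 3' UTR of RBM8A at chr1:145925783-145925881 had 4.13 and 4.67 in the cytoplasm, against 2.19 and 2.85 in whole cells, and the replicates stood apart. The difference was 1.89 ± 0.86 (SE; limma, adjusted p = 0.26). The RBM39 window in the 5' UTR had 3.24 and 5.66 in the cytoplasm, against 2.00 and 2.74 in whole cells, a difference of 2.08 ± 1.00 (SE; limma, adjusted p = 0.26). RBM3 ran the other way in its second 5' UTR window, chrX:48575104-48575180, with 2.97 and 3.44 in the cytoplasm and 4.56 and 4.67 in whole cells, a difference of -1.41 ± 0.85 (SE; limma, adjusted p = 0.31). In its first window, at the RefSeq start, the difference was 0.03 and the replicates overlapped. RBMX had 3.15 and 4.68 in a coding window in the cytoplasm and 3.80 and 3.87 in whole cells, which overlapped. Relative to the median of all genes the differences were 0.78 in RBM39, 0.58 in RBM8A, -1.23 in RBMX and -2.72 in RBM3. Replicates stood apart in 3 of the 4 genes tested, against 61.1% of all.

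Without arsenic, RBM15 shared 3 coding windows between the fractions. The first had 2.19 and 3.03 in the cytoplasm, against 1.64 and 3.40 in whole cells, which overlapped, and it was the one tested, with a difference of 0.09 ± 0.72 (SE; limma, adjusted p = 0.96) that turned to -0.027 relative to the median of all genes. In the other two, with cytoplasmic means of 2.99 and 3.17 against 2.09 and 2.26 in whole cells, the replicates stood apart. RBMX had 2.22 and 3.20 in a coding window in the cytoplasm and 1.74 and 1.94 in whole cells, a difference of 0.87 ± 0.57 (SE; limma, adjusted p = 0.45). RBM12 overlapped in its 5' UTR, with a difference of 0.65 (limma, adjusted p = 0.67). Replicates stood apart in 1 of the 3 genes tested, against 50.5% of all.

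**Figure D4:**
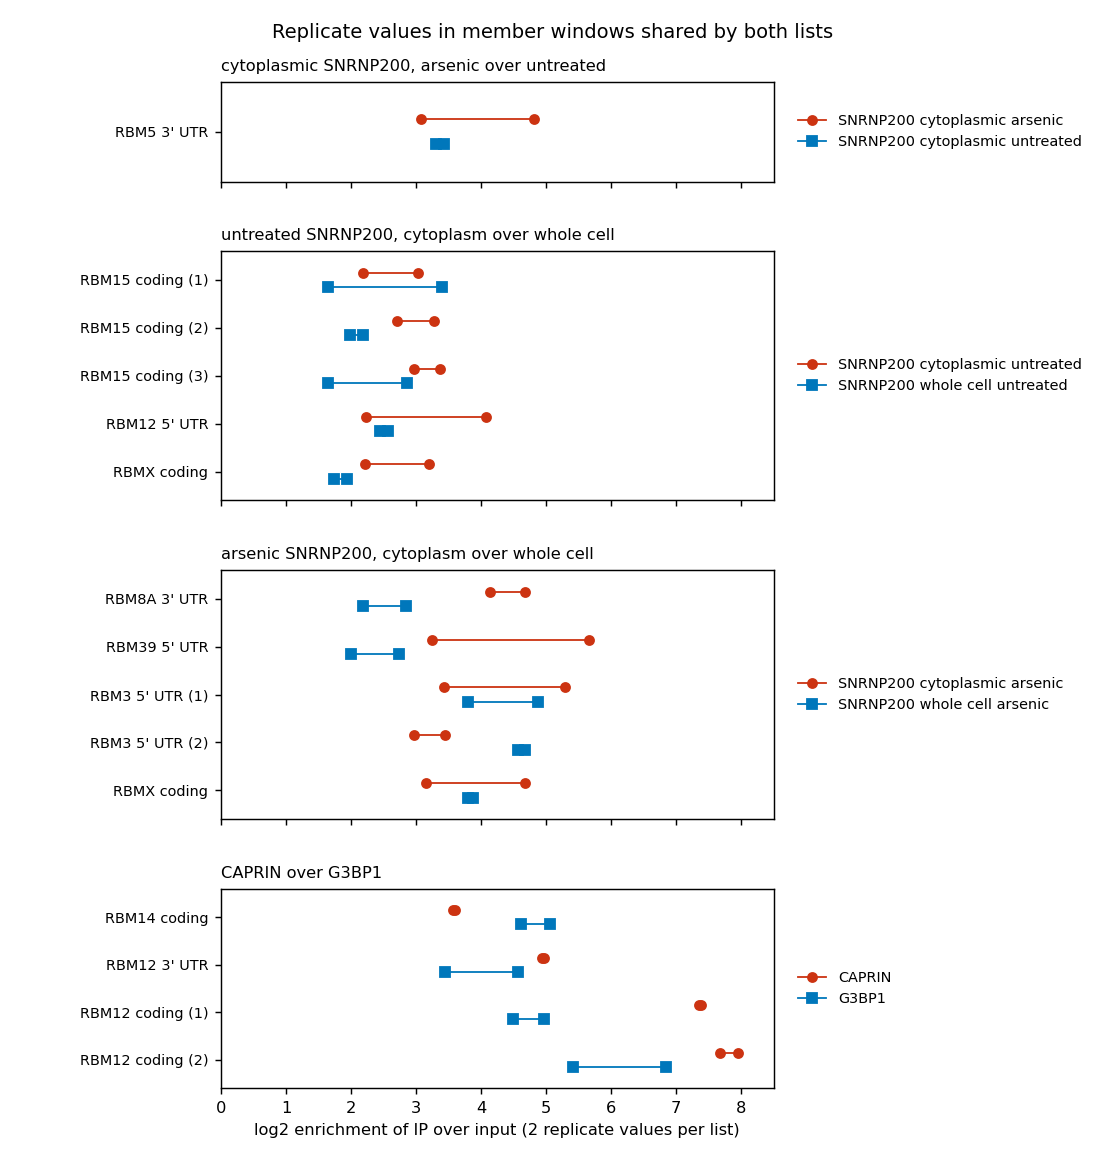
Both replicate values of log2 enrichment (horizontal axis) in member windows shared by 2 lists, with red circles for the list named first in each panel title and blue squares for the list it is set against, and a line from the lower to the higher value. RBM8A and the RBM39 5' UTR lie higher in the cytoplasm than in whole cells with arsenic without overlap, and the RBM12 coding windows lie higher for CAPRIN than for G3BP1.

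For the stress granule proteins the question was which family mRNAs each of them bound. CAPRIN had 74 member windows in 23 genes, of which 44 were in coding exons, or 59.5% against 52.3% of all windows, and 25 in a 3' UTR, or 33.8% against 34.8%. G3BP1 had 8 member windows in 6 genes, 5 of them coding, 2 in a 3' UTR and 1 in a 5' UTR. RBM12, RBM14, RBM14-RBM4, RBM27, RBM3 and RBM39, the 6 genes of G3BP1, were all listed for CAPRIN, and the other 17 were listed for CAPRIN only. Over all 4643 genes in either list 73.5% were listed for CAPRIN only and 6.03% for G3BP1 only.

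RBM12 held the strongest windows of the family for both proteins. Its coding window at chr20:35653323-35653422 on the minus strand had log2 values of 7.68 and 7.95 for CAPRIN with 267 IP and 2 input reads, against 5.41 and 6.85 for G3BP1 with 59 IP and 2 input reads. The replicates stood apart, and the difference of 1.69 ± 0.62 (SE) did not pass limma at an adjusted p of 0.076. The next window, chr20:35653223-35653322, had 7.35 and 7.39 for CAPRIN with 98 IP and 0 input reads. For G3BP1 it had 4.50 and 4.97 with 19 IP and 0 input reads, and 2.42 and 5.07 in the second set of that list. A 3' UTR window had 4.94 and 4.97 for CAPRIN against 3.45 and 4.57 for G3BP1. With the mean over these 3 windows the difference was 1.75 (limma, adjusted p = 0.034), and relative to the median of all genes it was 2.15 (limma, adjusted p = 0.041), so the call depends on these choices.

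RBM14 was lower for CAPRIN than for G3BP1 in its shared coding window, chr11:66625281-66625380, with 3.57 and 3.60 for CAPRIN and 4.61 and 5.06 for G3BP1. This window held 91 IP and 8 input reads for CAPRIN, and 19 IP and 0 input reads for G3BP1. The higher G3BP1 values therefore rest on an input without reads. The difference was -1.25 ± 0.52 (SE), with an adjusted p of 0.10 in limma, and it was -0.79 relative to the median of all genes. Both member windows tested had an unadjusted p under 0.05, as did 151 of the 367 windows of all genes. Neither member window was called, while 30.2% of the 367 windows were called. Replicates stood apart in both, against 68.7% of all windows, and the median difference over all genes was -0.47. RBM14 had 11 CAPRIN windows, up to a mean of 5.55 in its 3' UTR at chr11:66627064-66627162, with 24 IP and 0 input reads. SNRNP200 had a mean of 2.62 there in the untreated cytoplasm, with 22 IP and 3 input reads. The CAPRIN and SNRNP200 lists were scaled separately, so these means do not compare the strength of binding.

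RBM42 carried 10 CAPRIN windows, all coding, and none for G3BP1. RBM42 binds hnRNP K and is known from stress granules and the tri-snRNP. Its top window at chr19:35633687-35633769 had values of 6.70 in both replicates with 94 IP reads and 0 input reads, and the 4 windows from chr19:35633687 to chr19:35634019 were contiguous. G and C made up 67.5% to 75.9% of these 4 windows, against a median of 54.1% over the CAPRIN windows of members and 56.1% over all. RBM10, RBMX and RBM3 had 7 CAPRIN windows each. The 7 of RBMX included 4 in the 3' UTR with means of 2.81 to 4.63 and the window at the RefSeq start, with 3.17 and 3.29. RBM10 had 1 window beside a 5' splice site with 880 IP and 410 input reads and a low mean of 1.22.

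RBM3 had a coding window listed for both proteins. The window at chrX:48576353-48576419 had 2.86 and 2.97 for CAPRIN with 95 IP reads and 2.03 and 2.49 for G3BP1 with 38 IP reads, and 4 further CAPRIN windows lay in its 3' UTR. That G3BP1 window, the only one in RBM3, comes from the second set of the G3BP1 list. This set was scaled apart and its source is uncertain, so no test was made. RBM27 had a coding window for CAPRIN with a mean of 2.41 and a 3' UTR window for G3BP1 with a mean of 3.15. RBM39 had its 3' UTR window for CAPRIN with a mean of 3.75 and its 5' UTR window for G3BP1 with 3.81 and 3.82. Among genes listed for CAPRIN only, RBM23 and RBM8A reached means of 5.04 and 4.96, with 21 and 13 IP reads. RBM19 reached 4.96 in an intron with 18 IP reads, and all of these windows had 0 input reads. RBM6 had 2 of its 3 CAPRIN windows in introns.

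**Figure D5:**
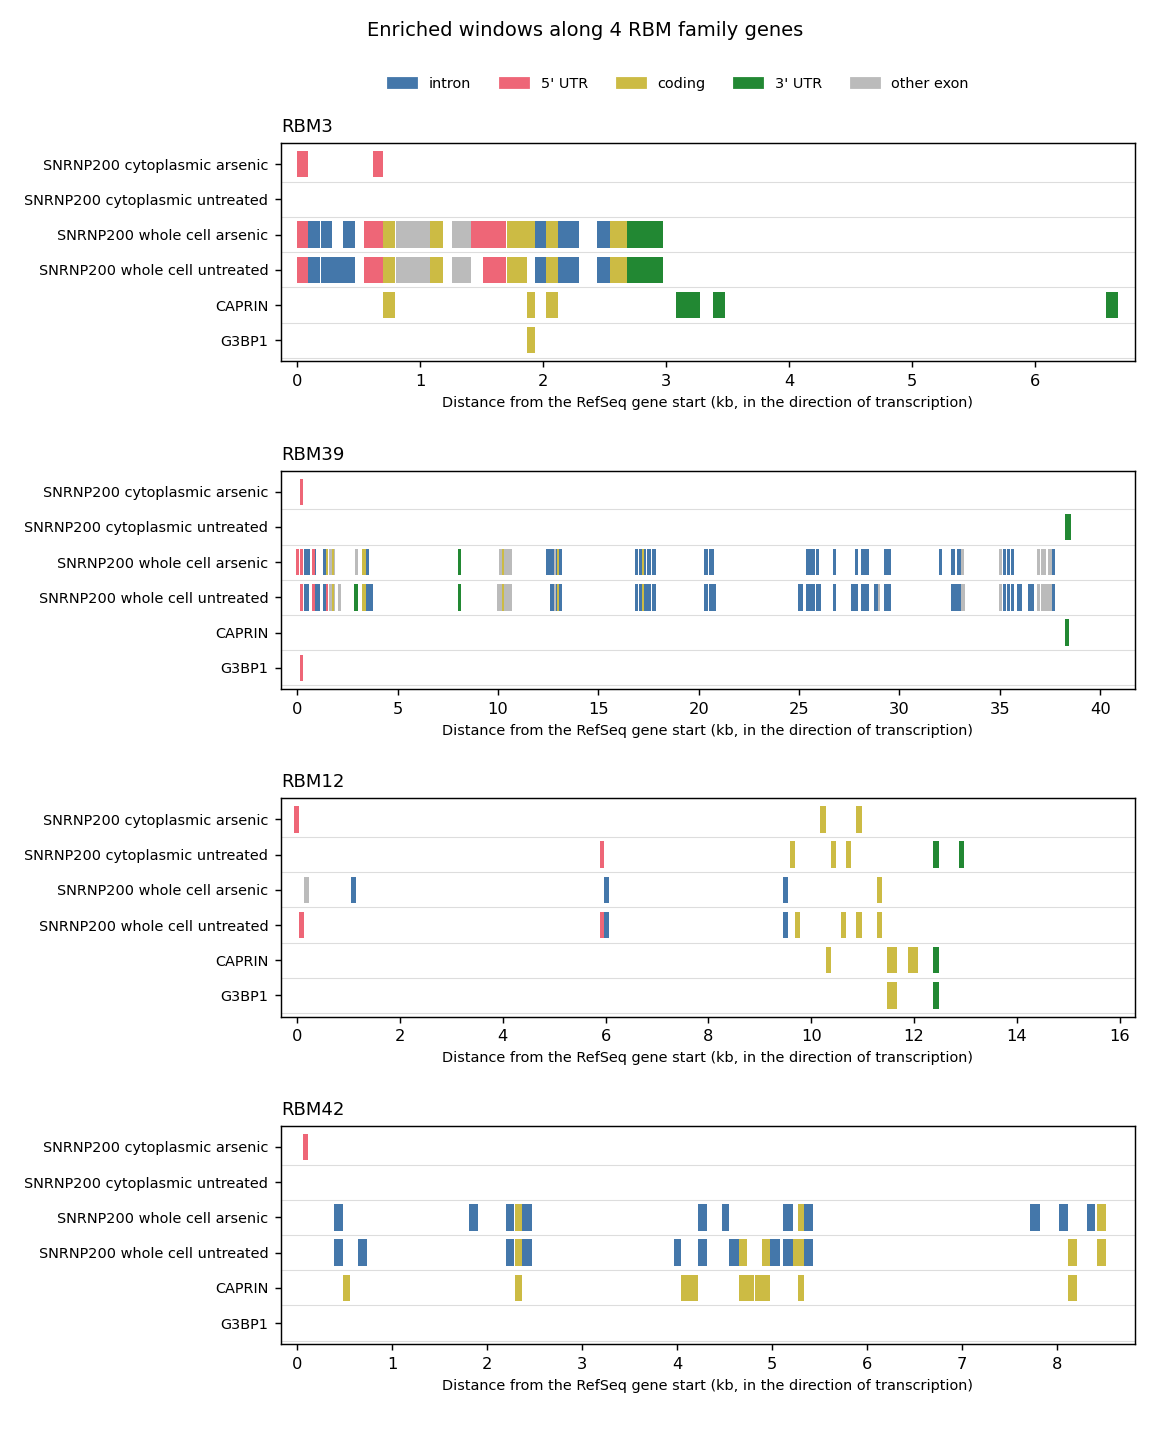
Enriched windows along RBM3, RBM39, RBM12 and RBM42, by distance from the RefSeq start in the direction of transcription (horizontal axis, kb), with 1 row per list and colours for feature types. SNRNP200 covers introns and exons of RBM3, RBM39 and RBM42 in whole cells, the 5' end of all 4 genes in the cytoplasm with arsenic, and CAPRIN covers coding exons of RBM42 and, with G3BP1, the same coding stretch of RBM12.

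Other genes of the same processes were counted in the same lists, and SR and hnRNP genes, whose proteins coat pre-mRNA and guide splicing, were listed most often outside whole cells. Of 33 SR and hnRNP genes, 24 were listed in the cytoplasm with arsenic, 26 in it without arsenic, 32 for CAPRIN and 21 for G3BP1. Of 16 partners in the early spliceosome the counts were 10, 8, 14 and 7, and of 8 genes of the exon junction complex, to which RBM8A belongs, they were 4, 2, 7 and 3. The m6A writer complex, to which RBM15 binds, had 6 genes, of which ZC3H13 was listed in the cytoplasm with arsenic and ZC3H13 and WTAP without it. Of 4 genes of nuclear RNA decay, PABPN1 was listed with arsenic and PABPN1 and ZFC3H1 without it. In whole cells all 6 genes of the writer complex, all 4 of nuclear decay and all 8 of the exon junction complex were listed with and without arsenic.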

How the data were processed

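The submitters' processing notes name fastp 0.11.5, STAR 2.7.6 and the genome build hg38. A window caller was not given in the sources used here. None of the 6 deposited lists has column names, so columns were identified from their values. The authors deposited raw IP and input counts for each window as sums over replicates. Deposited log2 values give the enrichment of IP over input, and in windows from 2 replicates, which every member window is, the lowest and highest are the 2 replicates without their numbers. Lists were scaled separately, so a difference between them contains that of their baselines. The deposited q values are those of the window calls. The deposited GC content of a window is a fraction. Depth per library was not used here, so counts in windows limit the precision: member windows had a median of 2 to 15 input reads by list. The labels' protocols name the same antibody number for all 3 proteins, and the treatment field names arsenic for all samples, while the characteristics were used here.

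The G3BP1 list joins a set of 1254 entries from 2 replicates and a set of 1988 from at most 3. Both served for listing and the first for differences. The second has more replicates than the 2 G3BP1 IP libraries of the labels, so its source is uncertain. With the first set alone 5 members were listed for G3BP1 in place of 6, without RBM3. Differences were tested with limma 3.58.1 in R 4.3.3 (two-sided, without pairing) in the shared window with the most IP reads of each gene, over all genes, with Benjamini-Hochberg adjusted p under 0.05, and the script was tested on simulated data. Groups of genes were described by counts only. The members and gene lists were chosen with earlier results of these data known. Genes were named by a rule: in each list the 10 members with most windows and the 5 with the highest mean, in each comparison the 10 largest differences and members found in 1 list only, and every member by its role. RefSeq tables (GRCh38.p14) held all 35 members as genes and 32 as start sequences. No genome sequence was used here.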

Additional observations from a re-analysis of the deposited data

How the results depend on the processing

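No paired analysis was possible because the deposited replicate values carry no replicate number, and for the same reason no known replicate could be left out. In the 4 SNRNP200 comparisons no member was called under the alternatives that left a member window to test. None was left in the cytoplasm, arsenic over untreated, or between fractions without arsenic, under stricter q or the read minimum, nor between fractions with arsenic under stricter q. Between CAPRIN and G3BP1, 1 was called with the mean over all shared windows and 1 with the median difference removed (RBM12). Over all genes the calls moved too: 112 of 669 windows in the cytoplasm passed with a variance prior that follows mean enrichment, 29 of 671 with the mean over windows, 19 of 38 with stricter q and 62 of 283 with the read minimum, against 0 as reported. Between fractions the prior gave 3 of 527 calls with arsenic, stricter q 1 of 24 and the read minimum 1 of 313, and the read minimum gave 18 of 96 without arsenic, against 0 each. CAPRIN over G3BP1 had 111 of 367, 67 of 222 with stricter q and 21 of 63 with the read minimum. Counts of listed members moved with the threshold. With at least 3 windows, 2 members were listed in the cytoplasm with arsenic, 4 without it, 10 for CAPRIN and 1 for G3BP1. With q under 0.05 they were 2, 3 and 3 for the cytoplasm with arsenic, the cytoplasm without it and G3BP1, and G3BP1 had 2 with windows of 1 gene only. The median member difference became -1.44 in the cytoplasm, arsenic minus untreated, with the median of all genes removed, 1.39 with only the higher value of each list and -0.23 with only the lower. For cytoplasm minus whole cell with arsenic it became -0.32 with that median removed, 1.89 with at least 20 IP and 10 input reads and 0.30 with only the lower value. For CAPRIN minus G3BP1 it became 0.68 with the median removed, -0.18 with only the higher value and 0.61 with only the lower. Signs turned in 8 member differences: with the mean over windows in RBM19 (0.14) and RBMX2 (-0.26) and with stricter q in RBM20 (-0.16), all in whole cells; with the read minimum in RBM34 (-0.15) in whole cells and in RBM3 (0.027) between fractions with arsenic; and with the median removed in RBM5 (-1.44) in the cytoplasm, RBM15 (-0.027) between fractions without arsenic and RBMX (-1.23) with it. The cause was not tested.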
